A study of Mus musculus with 12 samples.

Results

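The 34 genes described here belong to fat cells and to lipid synthesis, and they were followed in mouse pancreas with and without a HuR transgene. They came as a fixed list of gene names, and each was read from the array row annotated to it, or from the row with the highest mean where there were several. Of the 34, 31 had such a row, out of 30142 genes measured. Cfd (adipsin), Acsl1 and Adrb3 had no row named to them in the annotation used here and were not analysed. Among the 31, 29 lay above the median row level of 4.52, and Slc2a4 and Ucp1 lay below it.

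Pancreas was taken from mice at 6 months, and each of 12 RNA samples was read on its own array. The 6 control samples had the genotype Pdx1/Cre, in which the promoter of the pancreatic gene Pdx1 drives Cre recombinase. The 6 HuR samples had the genotype Pdx1/Cre + Traffic-HuR, so both genotypes carried Cre and differed by the HuR transgene. HuR is an RNA-binding protein that binds AU-rich messages and alters their stability and translation. The labels give neither sex nor strain, nor do they say that each array held a separate mouse, so p-values measure the spread between these arrays, which may in part be technical.

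White fat cells store triglyceride in a droplet coated by perilipins and Cidec, secrete adipokines such as adiponectin and leptin, and release fatty acids by lipolysis. They take up fatty acids from blood with lipoprotein lipase and Cd36, and can also make them from citrate through Acly, Acaca and Fasn, a route that insulin and feeding increase. Fat lies around and between the lobules of the mouse pancreas. Fatty acid synthesis also takes place in other tissues, and Cd36, Fabp4, Lpl and Cav1 are also made by capillary endothelium or macrophages.

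Promoter sequences from RefSeq (build GRCm38.p6) were matched for 22 of the 31 genes, and 4 are shown as examples of a pair of roles described by array, the adipokines and fatty acid synthesis. Adipoq and Lep encode adipokines, and Thrsp and Elovl6 belong to fatty acid synthesis. Elovl6 was chosen after its values were seen. Each line holds the 250 bases before the annotated start, 5′ to 3′ on the strand of the gene. The positions are chr16:23146286-23146535 (+) for Adipoq, chr6:29059971-29060220 (+) for Lep, chr7:97417551-97417800 (-) for Thrsp and chr3:129532136-129532385 (+) for Elovl6. Capitals mark matches on either strand to any of 6 motifs: CCAAT (a box near many starts), TTGCGCAA (a palindromic C/EBP site), AGGTCA (a nuclear receptor half-site), CACGTG (an E-box), TATAAA (a core promoter element) and TCACCCCAC (a sterol regulatory element).
Adipoq: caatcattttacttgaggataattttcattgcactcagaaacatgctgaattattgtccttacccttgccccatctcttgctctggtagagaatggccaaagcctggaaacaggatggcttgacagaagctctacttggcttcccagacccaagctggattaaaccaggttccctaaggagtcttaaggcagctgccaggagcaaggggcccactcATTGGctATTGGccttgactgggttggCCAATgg
Lep: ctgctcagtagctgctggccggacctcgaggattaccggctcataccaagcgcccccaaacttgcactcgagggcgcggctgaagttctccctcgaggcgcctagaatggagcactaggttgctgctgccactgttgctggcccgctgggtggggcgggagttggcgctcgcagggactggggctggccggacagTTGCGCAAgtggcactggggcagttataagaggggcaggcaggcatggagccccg
Thrsp: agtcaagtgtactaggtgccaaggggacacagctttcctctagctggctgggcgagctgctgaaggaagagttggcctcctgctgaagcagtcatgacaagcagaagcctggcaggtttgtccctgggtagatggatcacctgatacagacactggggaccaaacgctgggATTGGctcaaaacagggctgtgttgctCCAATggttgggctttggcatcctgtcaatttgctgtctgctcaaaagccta
Elovl6: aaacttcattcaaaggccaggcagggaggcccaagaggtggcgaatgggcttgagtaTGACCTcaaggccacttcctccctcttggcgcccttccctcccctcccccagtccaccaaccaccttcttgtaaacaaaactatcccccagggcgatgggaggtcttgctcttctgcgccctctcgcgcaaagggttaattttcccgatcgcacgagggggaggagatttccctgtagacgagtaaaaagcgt

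The Adipoq stretch holds 3 CCAAT matches within 34 bases of the start, and the Thrsp stretch holds 2. CCAAT was found in 7 of 22 genes against 33.8% of windows of the same length. The Lep stretch holds TTGCGCAA from 55 to 48 bases before the start, a palindrome found in 1 of 22 genes against 0.164% of windows. Elovl6 holds AGGTCA on the opposite strand, found in 6 of 22 genes against 14% of windows. TATAAA was found in 3 of 22 genes against 12.4% of windows, CACGTG in 1 of 22 genes against 6.02% of windows, and TCACCCCAC in 0 of 22 genes against 0.496% of windows. The shares are over 32851 RefSeq windows, and a gene with several starts (6 of the 22) was counted if any of its windows held the match. A match describes letters in the window, not a bound site.

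Levels below are log2 values as deposited, and differences are HuR minus control on that scale with their standard error (SE). Array medians ran from 4.42 to 4.60, and the 23 background rows had a median of 3.74. Elavl1, which encodes HuR, was 5.99 ± 0.12 (SD, n = 6) over the controls, against 6.23 ± 0.14 (SD, n = 6) with HuR, with 5 of 6 HuR arrays above all controls and HuR replicate 5 below 3 of them. It differed by 0.24 (SE 0.075), with a limma adjusted p of 0.878. The mean level of 8 measured acinar markers was 14.50 to 15.16 in the controls and 14.45 to 14.91 in the HuR samples, but 4 of the 8 stood at the top of the scale, 19.93, on all 12 arrays and could not differ. The mean of the other 4 was 9.07 to 10.39 and 8.96 to 9.88. For 12 of the 31 genes at least 5 of 6 controls lay below 6.01, the highest mean of any background row (Adipoq, Lep, Plin1, Plin4, Slc2a4, Lipe, Aqp7, Pck1, Dgat1, Thrsp, Pparg and Ucp1), so no single fold is given for these and their differences may be understated. Both replicate 2 arrays were the highest of their genotype for most of the listed genes, so results are given with and without them.

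Most of the fat and lipogenic genes had a higher mean with HuR, but none of the 31 passed the test. The mean was higher for 27 of 31 genes and lower for 4 (Lgals12, Cav1, Cebpa and Ucp1), where 47.9% of all genes were higher. The median difference over the 31 genes was 0.44, against -0.0033 over all genes. A mean at least 2-fold higher was seen for 7 of the 31 (Car3, Retn, Adipoq, Fabp4, Thrsp, Fasn and Cidec), against 0.594% of all genes. Adipoq and Thrsp are counted by their log2 difference, although 5 of their 6 controls lay below the highest background row mean of 6.01. The count of genes at least 2-fold higher was 3 without HuR replicate 2, and also without both replicate 2 arrays. It was 11 without control replicate 2. The share of all genes is not given for these fits. In bulk tissue, fewer cells of a type and less RNA per cell cannot be told apart.

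With limma's moderated test and Benjamini-Hochberg adjustment over all genes, 0 of the 31 genes had an adjusted p under 0.05, as did 0% of all genes. At an unadjusted limma p under 0.05, 3 of the 31 were higher (Pparg, Car3 and Retn), against 2.87% of all genes. None was lower at that threshold, against 2.63% of all genes. All 6 HuR arrays lay above all controls for 0 of the 31, against 0.166% of all genes. At least 5 did so for 1 of the 31, Pparg, against 0.922%. Single arrays moved these counts. Without control replicate 2, 11 of the 31 had an unadjusted limma p under 0.05, where the share of all genes is not given. The median difference was 0.23 without HuR replicate 2. Leaving out HuR replicate 2 moved the difference of 24 of the 31 genes by over 1.5 times or turned its sign.

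**Figure D1:**
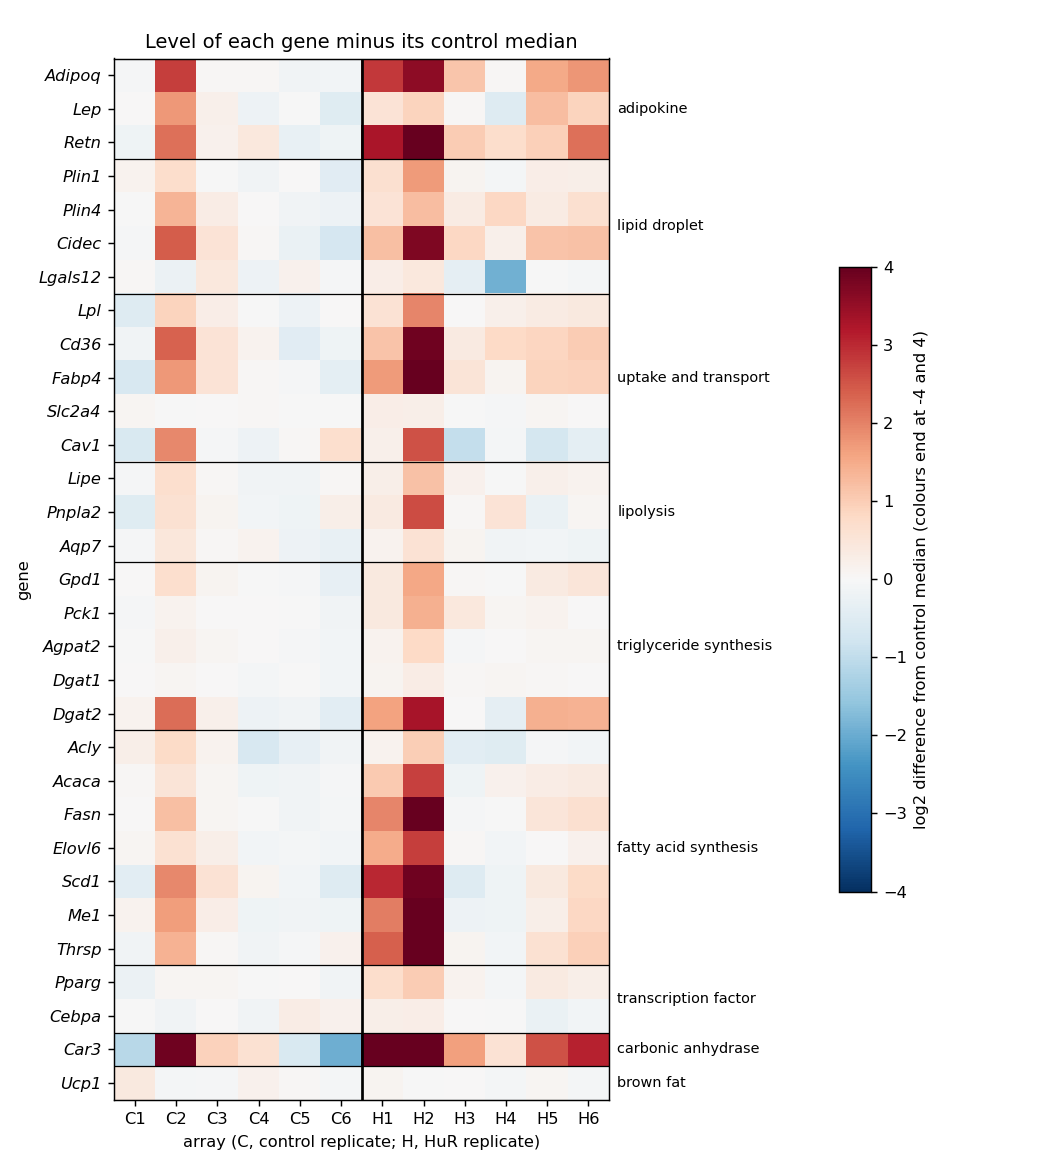
Heat map of the 31 genes (rows, grouped by role) on the 12 arrays (columns), coloured by the log2 level minus the gene's median over the 6 controls. HuR replicates 1 and 2 and control replicate 2 are red in most rows, HuR replicates 3, 5 and 6 are paler, and HuR replicate 4 is near the control colours in most rows.

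The adipokine genes had a higher mean with HuR. Adipoq encodes adiponectin, an abundant hormone of fat cells. It stood between 4.97 and 5.15 on 5 controls and at 7.85 in control replicate 2, and read 7.92, 8.68, 6.20, 5.14, 6.61 and 6.85 in HuR replicates 1 to 6. All HuR arrays but replicate 4 lay above those 5 controls, while control replicate 2 lay above 4 HuR arrays. The mean was 5.52 ± 1.14 (SD, n = 6) over the controls, against 6.90 ± 1.26 (SD, n = 6) with HuR. The difference was 1.38 (SE 0.64), with a limma adjusted p of 0.904. The exact two-sided permutation test gave p = 0.0736.

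Retn encodes resistin, a small protein secreted by mouse fat cells. Its controls read 7.06, 9.44, 7.39, 7.66, 6.94 and 7.07 and its HuR arrays 10.49, 13.92, 8.26, 7.94, 8.18 and 9.42 for replicates 1 to 6. All 6 HuR arrays lay above the 5 controls other than replicate 2, and 2 lay above every control. The difference was 2.11 (SE 0.93), or 4.31-fold. The exact two-sided permutation test gave p = 0.0433, beside a limma adjusted p of 0.904. Without HuR replicate 2 the difference was 1.26.

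Lep encodes leptin, the satiety hormone of fat cells. Its controls read 5.08, 6.81, 5.27, 4.87, 5.04 and 4.57 and its HuR arrays 5.60, 5.95, 5.12, 4.54, 6.28 and 5.97. The highest of the 12 values was in control replicate 2 and the lowest in HuR replicate 4, so the genotypes overlapped over their whole range. The difference of 0.30 (SE 0.38) was smaller than the SD of either genotype, with a limma adjusted p of 0.967.

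**Figure D2:**
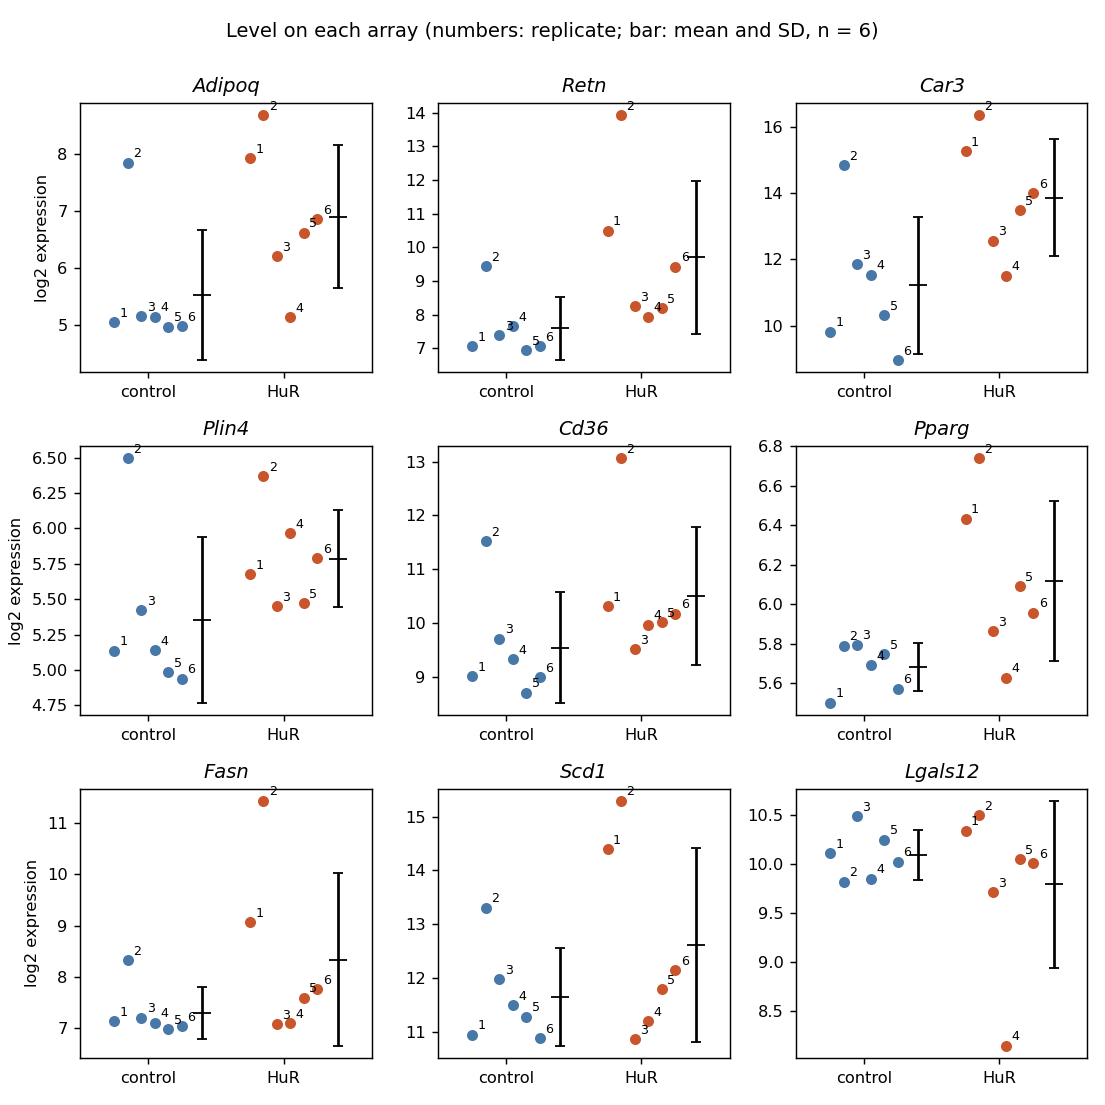
Log2 level of 9 genes on each array, with points numbered by replicate (blue, control; orange, HuR) and the mean with its SD (n = 6) beside each group. Control replicate 2 lies apart from the other controls for Adipoq, Retn, Car3, Plin4, Cd36, Fasn and Scd1 but among them for Pparg, and Lgals12 has 1 low point, HuR replicate 4 at 8.15.

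Among genes of the lipid droplet, Plin1, Plin4 and Cidec had a higher mean with HuR and Lgals12 a lower one. Plin4, a perilipin, read 5.13, 6.50, 5.42, 5.14, 4.98 and 4.94 in the controls and 5.67, 6.37, 5.45, 5.96, 5.47 and 5.79 in the HuR arrays. All 6 HuR arrays lay above the 5 controls other than replicate 2, which held the highest value of all. The difference was 0.43 (SE 0.26), with a limma adjusted p of 0.911. Plin1, the perilipin that guards the droplet against lipases, differed by 0.44 (SE 0.28). Cidec, which enlarges droplets by fusing them, differed by 1.04 (SE 0.62), and by 0.57 without HuR replicate 2, and read 10.05 in HuR replicate 2 and 8.74 in control replicate 2.

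Lgals12 encodes galectin-12, a lectin of fat cell droplets, and its arrays were ordered otherwise. The controls read 10.11, 9.82, 10.49, 9.85, 10.25 and 10.03, with replicate 2 the lowest of them, and the HuR arrays 10.34, 10.50, 9.72, 8.15, 10.05 and 10.01. HuR replicate 4 lay far below the rest. The difference of -0.30 (SE 0.34) became 0.031 without that array.

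Of the 5 measured genes of uptake and transport, 4 had a higher mean with HuR. Fabp4, the fatty acid binding protein of fat cells, read 8.44, 10.84, 9.64, 9.13, 9.06 and 8.70 in the controls and 10.81, 13.73, 9.60, 9.21, 9.998 and 10.01 in the HuR arrays. HuR replicate 2 alone lay above every control, and HuR replicates 1, 2, 5 and 6 lay above the 5 controls other than replicate 2. The difference was 1.26 (SE 0.70), or 2.39-fold. By exact two-sided permutation p was 0.0974, beside a limma adjusted p of 0.910. Without HuR replicate 2 the difference was 0.62.

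Cd36, a fatty acid transporter, read 9.01, 11.52, 9.70, 9.32, 8.70 and 8.99 in the controls and 10.31, 13.06, 9.51, 9.96, 10.01 and 10.17 in the HuR arrays. Here too HuR replicate 2 alone lay above every control, and all HuR arrays but replicate 3 lay above the 5 controls other than replicate 2. The difference was 0.97 (SE 0.62), with a limma adjusted p of 0.914, and 0.45 without HuR replicate 2. Lpl, the lipoprotein lipase, differed by 0.51 (SE 0.32).

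Cav1 encodes caveolin-1 of the membrane pits of fat and endothelial cells, and read 8.10, 10.63, 8.66, 8.51, 8.77 and 9.38 in the controls and 8.93, 11.27, 7.78, 8.64, 8.01 and 8.33 in the HuR arrays. Both replicate 2 arrays were highest, followed by control replicate 6. HuR replicates 3, 5 and 6, whose Adipoq lay above 5 controls, were below the control median of 8.72 for Cav1. The difference was -0.18 (SE 0.58). Slc2a4, the insulin-responsive glucose transporter GLUT4, stood at 4.20 to 4.28 in the controls and 4.17 to 4.48 in the HuR arrays and differed by 0.074 (SE 0.057).

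All 3 measured lipolysis genes had a higher mean with HuR. Pnpla2, the adipose triglyceride lipase, read 6.18, 7.28, 6.77, 6.53, 6.47 and 6.88 in the controls and 7.01, 9.26, 6.71, 7.20, 6.39 and 6.73 in the HuR arrays. HuR replicate 2 alone lay above the controls. The difference was 0.53 (SE 0.42), 0.12 without HuR replicate 2 and 0.24 (SE 0.17) without both replicate 2 arrays. Lipe, the hormone-sensitive lipase, differed by 0.25 (SE 0.20), and Aqp7, the glycerol channel of fat cells, by 0.055 (SE 0.15).

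All 5 genes of triglyceride synthesis had a higher mean with HuR. Dgat1, an enzyme of the last step, had a narrow spread, with controls at 5.69, 5.75, 5.70, 5.59, 5.66 and 5.57 and HuR arrays at 5.78, 5.96, 5.72, 5.75, 5.72 and 5.69. HuR replicates 1, 2 and 4 lay above every control and the others overlapped with them. The difference was 0.11 (SE 0.052). The exact two-sided permutation test gave p = 0.0303, beside a limma adjusted p of 0.905. Gpd1, which makes the glycerol backbone, read 7.69, 8.33, 7.76, 7.63, 7.61 and 7.34 in the controls and 8.05, 9.21, 7.71, 7.66, 8.03 and 8.14 in the HuR arrays. HuR replicate 2 alone lay above every control, and the difference was 0.40 (SE 0.25), or 0.19 without that array.

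Pck1, an enzyme of glyceroneogenesis, read 4.97, 5.15, 5.04, 5.03, 5.01 and 4.89 in the controls and 5.43, 6.44, 5.43, 5.10, 5.15 and 5.05 in the HuR arrays. HuR replicates 1, 2, 3 and 5 lay above every control, replicate 5 by less than 0.01. The difference was 0.42 (SE 0.20), and 0.22 without HuR replicate 2. By exact two-sided permutation p was 0.0130, beside a limma adjusted p of 0.905. Dgat2, the other enzyme of the last step, read 8.56, 10.27, 6.98, 6.59, 8.38 and 8.36 in the HuR arrays against a control median of 6.96 and 9.19 in control replicate 2. It differed by 0.93 (SE 0.61), and by 0.52 without HuR replicate 2, and Agpat2, an acyltransferase of the pathway, by 0.17 (SE 0.12). Pck1, Dgat2, Cav1 and Cidec, and below Fasn and Elovl6, were chosen for values by array after their values were seen.

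Fatty acid synthesis genes were high in HuR replicates 1 and 2, which lay above every control for 6 and 7 of the 7 genes, while each of the other HuR arrays did so for 0. All 7 had a higher mean with HuR, with a median difference of 0.97, although Acly, which makes acetyl-CoA from citrate, differed by 0.0027 (SE 0.27). The median deviation of the 7 genes from their control medians was 1.94, 3.90, -0.17, -0.11, 0.30 and 0.63 in HuR replicates 1 to 6. It was 1.20 in control replicate 2 and between -0.15 and 0.14 in the other controls. For the 3 adipokines the same measure was 2.83, 3.59, 1.03, 0.045, 1.22 and 1.76 in the HuR arrays and 2.22 in control replicate 2. Small deviations in HuR replicates 3 to 6 were not confined to fatty acid synthesis: the 5 triglyceride synthesis genes had 0.044, 0.025, 0.13 and 0.084, and the 3 lipolysis genes 0.11, -0.031, -0.10 and 0.078.

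Thrsp (Spot14), a lipogenic protein that responds to thyroid hormone and diet, read 5.71, 7.22, 5.88, 5.69, 5.80 and 6.00 in the controls and 8.23, 9.92, 5.94, 5.74, 6.46 and 6.80 in the HuR arrays. HuR replicates 1 and 2 lay above every control. It differed by 1.13 (SE 0.64), with a limma adjusted p of 0.911, and by 0.59 without HuR replicate 2.

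Scd1, the desaturase that makes oleate, read 10.95, 13.31, 11.98, 11.50, 11.28 and 10.88 in the controls and 14.40, 15.29, 10.87, 11.20, 11.79 and 12.14 in the HuR arrays. HuR replicates 1 and 2 lay above every control. HuR replicate 3 lay barely below every one, at 10.87 against a lowest control of 10.88. The difference was 0.97 (SE 0.76), and 0.43 without HuR replicate 2. A second row of Scd1 also had its highest values in HuR replicates 2 and 1, at 11.33 and 10.33. In that row HuR replicate 3, at 7.15, lay above control replicates 1, 5 and 6 and below control replicates 2, 3 and 4.

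Fasn, the fatty acid synthase, read 7.14, 8.32, 7.20, 7.11, 6.97 and 7.04 in the controls and 9.07, 11.43, 7.08, 7.10, 7.60 and 7.76 in the HuR arrays. HuR replicates 1 and 2 lay above every control and replicates 3 and 4 among the 5 lower controls. The difference was 1.04 (SE 0.66), and 0.42 without HuR replicate 2. Elovl6, which lengthens palmitate, read 7.59 and 8.89 in HuR replicates 1 and 2 and 6.01 to 6.28 in the other 4, within the control range of 6.00 to 6.71. It differed by 0.63 (SE 0.45). Acaca, which makes malonyl-CoA, differed by 0.69 (SE 0.41), and Me1, the malic enzyme that supplies NADPH, by 0.97 (SE 0.76). Without HuR replicate 2 these became 0.22, 0.29 and 0.28.

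**Figure D3:**
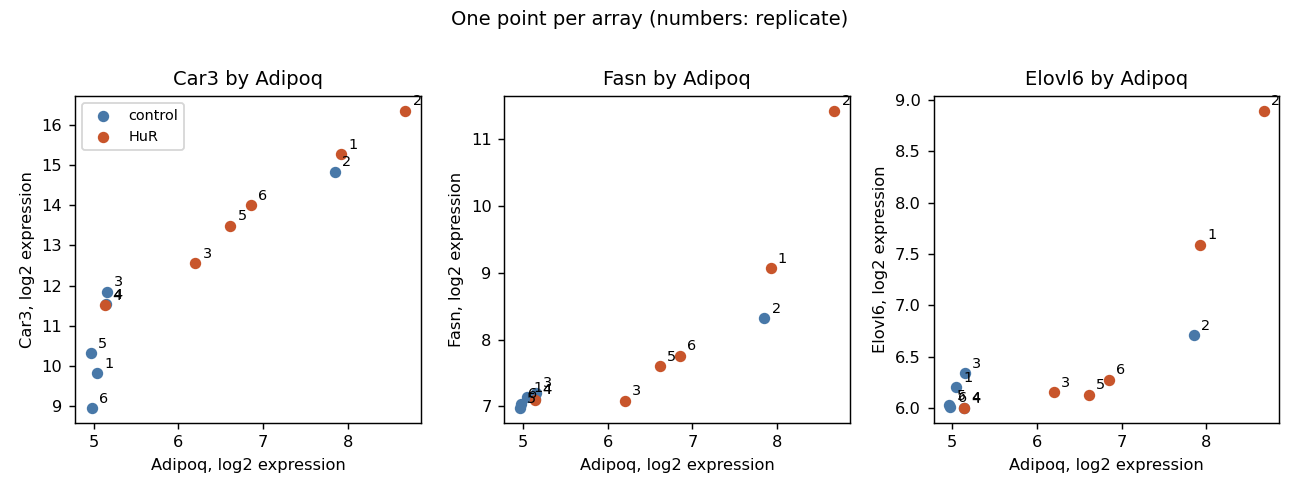
Car3, Fasn and Elovl6 (vertical axes, log2) against Adipoq (horizontal axis, log2), 1 point per array, numbered by replicate. HuR replicates 3, 5 and 6 lie between the low and the high arrays for Car3, while for Elovl6 all arrays but HuR replicates 1 and 2 lie within 6.00 to 6.71.

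Pparg, the nuclear receptor that directs fat cell formation, had the smallest unadjusted limma p of the 31 genes, while by exact permutation that of Pck1 was smaller. It read 5.50, 5.79, 5.79, 5.69, 5.75 and 5.57 in the controls and 6.43, 6.74, 5.86, 5.63, 6.09 and 5.96 in the HuR arrays. All HuR arrays but replicate 4 lay above every control, replicate 2 of the controls included. The difference was 0.44 (SE 0.16). The exact two-sided permutation test gave p = 0.0195, beside a limma adjusted p of 0.878. Cebpa, its partner in fat cell formation, read 6.39, 6.26, 6.40, 6.26, 6.71 and 6.57 in the controls and 6.64, 6.66, 6.41, 6.38, 6.13 and 6.29 in the HuR arrays. Its ranges overlapped, with a difference of -0.015 (SE 0.11).

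Car3, carbonic anhydrase 3, is abundant in mouse fat and muscle and had the largest difference of the 31 genes. The controls read 9.82, 14.84, 11.85, 11.54, 10.32 and 8.96 and the HuR arrays 15.26, 16.34, 12.56, 11.51, 13.49 and 14.00 for replicates 1 to 6. HuR replicates 1 and 2 lay above every control, and the order of the 6 HuR arrays was that of Adipoq. The difference was 2.64 (SE 1.02), or 6.23-fold. By exact two-sided permutation p was 0.0455, beside a limma adjusted p of 0.878. The mean of 6 skeletal muscle markers stayed at 4.63 to 4.76 in the controls and 4.58 to 4.75 in the HuR samples. Ucp1, the uncoupling protein of brown fat, stood at 3.61 to 4.07 in the controls and 3.63 to 3.81 in the HuR arrays, around the median of the background rows, and differed by -0.063 (SE 0.077).

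HuR replicate 2 was the highest of the 12 arrays for 26 of the 31 genes, against 16.0% of all genes. Control replicate 2 was the highest control for 26 of the 31, against 15.2%. HuR replicates 1 to 6 lay above the control median for 31, 30, 22, 13, 25 and 25 of the 31 genes, against 51.1%, 39.8%, 53.2%, 46.1%, 48.6% and 50.7% of all genes. Control replicates 2 and 3 did so for 27 and 28, more than HuR replicates 3 to 6, against 38.2% and 47.8% of all genes. The other controls did so for 6 to 13, against 49.4% to 53.5%. For control replicate 3 the shifts were small, with a median deviation from the control medians of 0.10. In HuR replicates 3 to 6 that median was 0.049, -0.027, 0.30 and 0.37. The HuR arrays lay above all 6 controls for 13, 27, 2, 1, 3 and 1 genes, against 12.6%, 19.8%, 13.3%, 11.8%, 13% and 13.4% of all genes, so that replicates 3 to 6 were under that background. Above the 5 controls other than replicate 2 they lay for 25, 29, 9, 7, 21 and 21, against 15.6%, 22.1%, 15.9%, 14.4%, 14.9% and 16.2%.

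HuR replicate 1 and control replicate 2 had a like level of Adipoq, at 7.92 and 7.85. HuR replicate 1 lay above control replicate 2 for 6 of 7 fatty acid synthesis genes, with a median gap of 0.74. Over all 31 it lay above for 16, and over all genes for 58.8%. It lay above it for 0 of 3 lipolysis genes, 1 of 5 uptake genes and 1 of 4 droplet genes, with median gaps of -0.31, -0.30 and -0.44. For adipokines it was 2 of 3 and for triglyceride synthesis 2 of 5, with median gaps of 0.075 and -0.044. These are single arrays side by side, with no test. They also differed in Xist, described below, at 15.30 in HuR replicate 1 and 5.51 in control replicate 2. Genotype and Xist therefore cannot be told apart in this pair.

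Without both replicate 2 arrays, the mean was higher for 26 of the 31 genes, against 47.6% of all genes, with a median difference of 0.33. At an unadjusted limma p under 0.05, 15 of the 31 were higher, against 3.4% of all genes, and limma's adjusted p was under 0.05 for 0. All 5 remaining HuR arrays lay above all 5 controls for Retn, Plin4 and Pck1, as they did for 0.727% of all genes. That order by itself fixes their exact two-sided permutation p at 0.00794, the smallest that 5 against 5 arrays can give, so the p adds nothing. Both arrays were left out because they were high for the listed genes, so these counts are no independent evidence. Adipoq differed by 1.49 (SE 0.41), Cd36 by 0.85 (SE 0.20), Cidec by 0.99 (SE 0.25) and Car3 by 2.86 (SE 0.76). Fasn differed by 0.63 (SE 0.33), Scd1 by 0.76 (SE 0.59) and Elovl6 by 0.31 (SE 0.27), and none of the 7 fatty acid synthesis genes had an unadjusted limma p under 0.05.

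**Figure D4:**
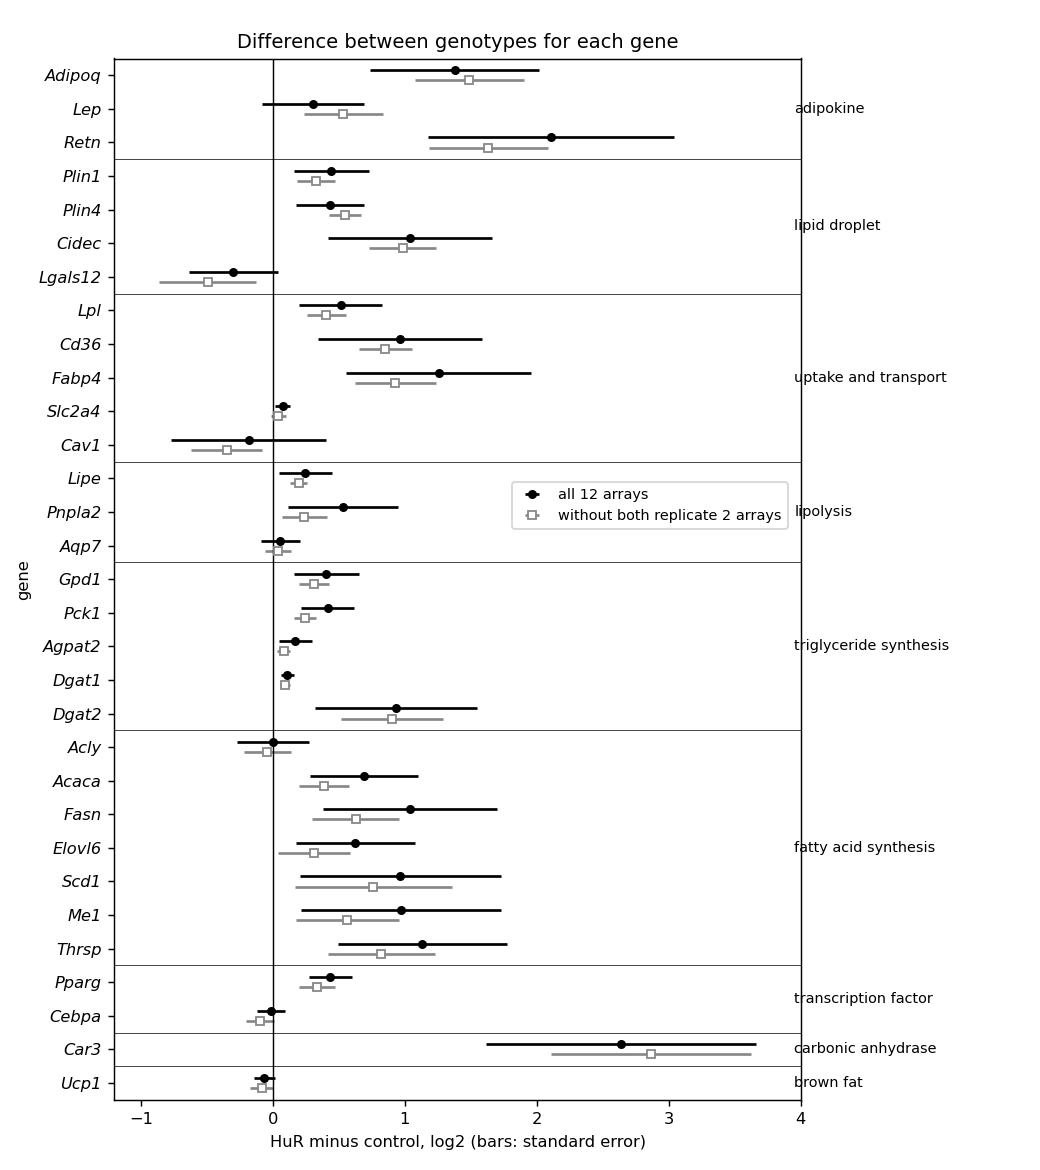
Difference between HuR and control (horizontal axis, log2) for each of the 31 genes, grouped by role, with bars for the standard error. Filled circles use all 12 arrays and open squares leave out both replicate 2 arrays. The squares lie closer to 0 than the circles for 22 of the 31 genes, among them all lipolysis and triglyceride synthesis genes and 6 of 7 fatty acid synthesis genes, and further from 0 for 9 (Adipoq, Lep, Plin4, Lgals12, Cav1, Acly, Cebpa, Car3 and Ucp1).

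Other genes of these pathways were higher and lower in like numbers. Over 72 measured genes in 7 further lists, 39 had a higher mean and 33 a lower one, with a median difference of 0.013. Of all genes 47.9% had a higher mean, the background for this count and for those by list below. At an unadjusted limma p under 0.05, 3 were higher and 4 lower of the 72, against 2.87% and 2.63% of all genes, and 0 had an adjusted p under 0.05. Other fat storage genes were higher in 11 of 17, with the droplet protein gene Cidea at 0.085 (SE 0.044). The Cidea means, 4.43 in the controls and 4.52 with HuR, lay below the highest background row mean of 6.01. Other uptake genes were higher in 5 of 9, with Acsl5, an acyl-CoA synthetase, at 0.38 (SE 0.16) and 4 of 6 HuR arrays above all controls. Other triglyceride synthesis genes were higher in 7 of 10, with the acyltransferase gene Agpat1 at -0.13 (SE 0.065).

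Other lipogenesis genes were lower in 7 of 10. Fads2, a desaturase of polyunsaturated fatty acids, differed by -0.44 (SE 0.19), with 4 of 6 HuR arrays below all controls. Other regulators of fat cell formation were higher in 5 of 10. Stat5b, a transcription factor downstream of growth hormone and cytokines, was 6.77 ± 0.092 (SD, n = 6) over the controls, against 6.95 ± 0.074 (SD, n = 6) with HuR, with 6 of 6 HuR arrays above all controls and a limma adjusted p of 0.878. Genes of insulin and adipokine signalling were higher in 7 of 10, with the kinase gene Akt2 at -0.17 (SE 0.050). Other brown fat genes were lower in 6 of 8, with Cox8b, a respiratory chain subunit, at -0.099 (SE 0.050). Only 3 of the 8 lay above the median row level. The Cox8b means, 3.71 in the controls and 3.61 with HuR, lay below the median of the background rows, 3.74.

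**Figure D5:**
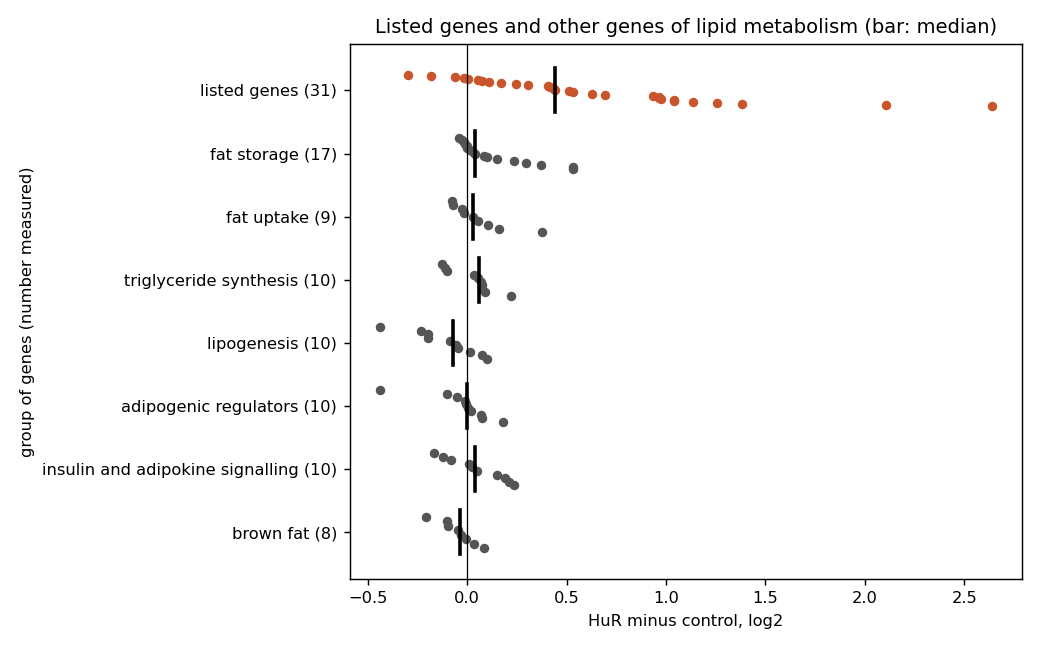
Difference between HuR and control (horizontal axis, log2) for the 31 listed genes (orange) and for 7 further lists of lipid genes (grey), 1 point per gene, with a bar at the median. The listed genes reach 2.64 with a median of 0.44, while the medians of the further lists lie between -0.072 and 0.061.

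Markers of other cells moved with some of the same arrays, and apart from the B cell mean, which was fitted as a covariate, their part in the results was not tested. Counts of higher markers below stand beside 47.9% of all genes with a higher mean. The mean of 10 macrophage markers was 7.07 to 8.63 in the controls and 7.61 to 9.84 in the HuR arrays, highest in HuR replicate 2, with 9 of 10 higher in the HuR samples. Their median difference, 0.77, was larger than that of the fat and lipogenic genes. At an unadjusted limma p under 0.05, 3 of 10 were higher, against 2.87% of all genes, with 0 at an adjusted p under 0.05. The mean of 9 B cell markers was 4.83 to 6.70 and 4.92 to 6.19, highest in control replicate 2, with 5 of 9 higher. Ighm ran from 6.18 to 14.79 and Ms4a1 from 4.34 to 8.31 over the arrays. The other B cell markers had group means of 4.49 to 5.51, below the highest background row mean of 6.01. With the B cell mean as covariate, Adipoq differed by 0.999 (SE 0.37), Retn by 1.63 (SE 0.68) and Car3 by 2.06 (SE 0.65). In that fit 25 of 31 genes had a positive difference. The macrophage mean was not fitted. The mean of 9 fibroblast markers was 8.14 to 9.24 and 7.97 to 10.02, highest in HuR replicate 2, with 4 of 9 higher. The mean of 7 mesothelial markers was 6.46 to 8.02 and 5.78 to 7.53, with 0 of 7 higher, and was highest within each genotype in replicate 2. The mean of 9 endothelial markers was 6.90 to 7.28 and 6.92 to 7.25, with 8 of 9 higher. Of the 4 acinar markers not at the top of the scale 0 were higher, and of the 6 islet markers not at 1 value on 3 or more arrays 0 were higher. Lymph node markers were higher in 3 of 8 and liver markers in 5 of 7.

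Xist, the RNA of the inactive X chromosome, read 5.56, 5.51, 5.59, 14.42, 14.97 and 5.53 in the controls and 15.30, 15.84, 5.76, 14.12, 5.55 and 5.50 in the HuR arrays. It was high in control replicates 4 and 5 and in HuR replicates 1, 2 and 4. Both sexes therefore appear to be present, in unequal numbers in each genotype, although the labels give no sex. HuR replicates 1 and 2, with the highest fatty acid synthesis genes, were among the 5 arrays with high Xist, and the other 3 had Fasn at 6.97 to 7.11. With Xist as a covariate, Fasn differed by 0.88, Car3 by 2.55 and Adipoq by 1.35.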

How the data were processed

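Expression was measured in 12 mouse pancreas samples, 6 of each genotype, by Affymetrix arrays. The authors deposited log2 values per row, computed by RMA with Affymetrix Expression Console 1.4, with Transcriptome Analysis Console 3.1 also named, per the submitters' processing notes; RMA removes background, makes the distributions of arrays alike and combines the probes of a row, which can compress differences of dim genes. Settings and genome build: not given in the sources used here. Of 72688 rows, 6732 control rows were left out and 65956 were fitted. Genes were named from the platform annotation (30604 rows with 1 symbol, 2146 with several, which were not named), with 827 symbols updated through RefSeq. The row with the highest mean stood for each of 30142 genes.

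The genotypes were compared with limma 3.58.1 (lmFit and eBayes, R 4.3.3) over all rows, with Benjamini-Hochberg adjustment over genes and a threshold of 0.05. Single genes were also tested by exact two-sided permutation of the 12 arrays (smallest possible p 0.00216). The fit was tested on simulated data: with 30142 genes, 64% of changes of 0.5 on the log2 scale and 94% of changes of 1 were recovered. The changes were put into genes drawn at random, with independent noise at each gene's own SD and no array standing apart. These shares do not carry over to listed genes with a wide spread, such as Cidec (SE 0.62) and Fasn (SE 0.66). A listed gene that did not pass may still differ. The number of arrays limits the precision.

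The genes and lists were chosen with earlier results of these data known, so the list is no independent evidence of its direction. Genes given by array are, in each role, those with the smallest p and the highest mean, with Adipoq, Lep, Car3 and Ucp1; from each further list the gene with the smallest p is named. Same-numbered arrays were checked for pairing and treated as unpaired. Alternatives were other scalings and filters, covariates, array weights, a replicate block and leaving out arrays.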

Additional observations from a re-analysis of the deposited data

Results flagged for a closer look

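In 62 groups of 6 arrays (31 genes in each genotype), 23 had an array far from the others by Dixon's test at 95%. Of these, 11 were a high control replicate 2, 11 a high HuR replicate 2 and 1 a low HuR replicate 4. For a single group, chance gives about 1 in 20. The same arrays recur in the groups of every gene, so the groups are not independent. The count of 23 therefore cannot be set against that rate, and the share over all genes is not given.

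Control replicate 2 was far above the other controls for Adipoq (7.85, next 5.15), Retn (9.44) and Lep (6.81) among the adipokines. It was also so for Plin4 (6.50), Cd36 (11.52), Lipe (6.22) and Dgat2 (9.19). Among fatty acid synthesis genes it was so for Acaca (7.30), Fasn (8.32), Me1 (8.30) and Thrsp (7.22).

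HuR replicate 2 was far above the other HuR arrays for Cidec (10.05), Lpl (10.96), Cd36 (13.06), Fabp4 (13.73) and Cav1 (11.27). The same array stood apart for Lipe (6.71), Pnpla2 (9.26), Gpd1 (9.21), Pck1 (6.44), Agpat2 (6.76) and Dgat1 (5.96). HuR replicate 4 was far below the other HuR arrays for Lgals12 (8.15, next 9.72).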

How the results depend on the processing

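No listed gene and no gene overall passed the limma threshold under any of the alternatives run, and the lowest adjusted p of a listed gene was 0.369. In the 23 alternatives other than Adipoq as a covariate, 26 of the 31 genes kept the sign of their difference. The number of listed genes at an unadjusted limma p under 0.05 was 3 on all arrays and 15 without both replicate 2 arrays. Leaving out 1 array at a time it ran from 1 to 11, with 11 without control replicate 2. With the replicate number as a block it was 17. The share of all genes at that threshold is not given for the block or for leaving out 1 array. Those counts therefore cannot be set against all genes. The deviations of same-numbered arrays correlated at -0.057, 0.636, 0.079, 0.164, 0.177 and -0.079 for replicates 1 to 6, so the numbers were not taken as pairs. The difference of Acly turned to -0.078 with quantile normalization, -0.087 with array weights, -0.12 when adjusted for the B cell mean and -0.043 without both replicate 2 arrays, and the difference of Aqp7 to -0.0078 with the B cell mean. Leaving out 1 array at a time gave ranges that crossed 0 for Acly (-0.19 to 0.15), Aqp7 (-0.045 to 0.14), Cav1 (-0.67 to 0.14), Cebpa (-0.063 to 0.043) and Lgals12 (-0.44 to 0.031).

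The level of Adipoq as a covariate was an alternative chosen after seeing the data. With it, the adjusted difference was positive for 8 of the other 30 genes, and the count over all genes is not given. The 8 were Retn, Plin4, Slc2a4, Pck1, Dgat1, Acaca, Pparg and Car3. Over all alternatives run, the lowest difference was 0.37 for Retn and 0.59 for Car3. Adipoq is itself a listed gene and differed by 1.38, so the fit with it also takes out any difference shared with it. It lay below 6.01, the highest background row mean, in 5 of 6 controls. In this fit the sign turned for 18 genes, given next. The difference became -0.36 for Lep, -0.088 for Plin1, -0.16 for Cidec, -0.048 for Lpl, -0.16 for Cd36, -0.039 for Fabp4, -0.12 for Lipe, -0.017 for Pnpla2 and -0.19 for Aqp7. It became -0.047 for Gpd1, -0.025 for Agpat2, -0.32 for Dgat2, -0.49 for Acly, -0.15 for Fasn, -0.14 for Elovl6, -0.50 for Scd1, -0.43 for Me1 and -0.092 for Thrsp. The cause was not tested.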

Other observations

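Some further genes of fat cells, chosen after their values were seen, are given as values. Cebpd, a transcription factor of early fat cell formation, differed by -0.44 (SE 0.14), with 5 of 6 HuR arrays below all controls and a limma adjusted p of 0.878. Pde3b, the phosphodiesterase through which insulin restrains lipolysis, differed by 0.21 (SE 0.085). Scap, the escort protein of the lipogenic factor SREBP, differed by -0.23 (SE 0.10), with 4 of 6 HuR arrays below all controls. Plin2, a perilipin found in most cells, differed by 0.53 (SE 0.45).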
